A study of Mus musculus with 28 samples.

Results

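Sprr1a, Sprr2g, Lce1g and S100a7a are 4 genes of the epidermal differentiation complex, the gene cluster that encodes the coat of cornified skin cells and its S100 neighbours. They were taken by symbol from a table of 13128 measured mouse genes, and they were picked because of their levels in these same libraries, so those levels are described here without a test. The study followed DC2 cells, an immortalized mouse epithelial line of the distal caput epididymis, part of the duct in which sperm mature. Corticosterone, the main glucocorticoid of rodents, was given at 500 ng/ml in ethanol to confluent cells on collagen for the first 3 days, and vehicle cells received 0.1% ethanol. Corticosterone libraries came from day 3 (end of treatment) and from days 6 and 9 (recovery in changed medium), vehicle libraries came from the same days, and libraries of day 0, labelled vehicle, came from cells collected before treatment. Each of the 7 groups had 4 libraries, 28 in all. A single immortalized line limits what the cultures model, and the labels do not say that libraries of a group were separate cultures, so each p-value measures only the spread between these libraries.

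The cornified envelope is a protein shell that squamous cells build under the plasma membrane when they differentiate. Transglutaminases cross-link small proline-rich proteins (the Sprr family), late cornified envelope proteins (the Lce family), loricrin and other precursors onto a scaffold of desmosomal and plakin proteins. Sprr1a encodes one of the bridging small proline-rich proteins and is also known as a gene induced by injury and stress outside skin. Sprr2g belongs to the Sprr2 group of the same family, and Lce1g to the late envelope group. S100a7a is the mouse gene related to human psoriasin, a secreted calcium-binding S100 protein with antimicrobial and leukocyte-attracting activity that is abundant in psoriatic skin. The epididymal duct is lined by a columnar epithelium that does not cornify.

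All 4 genes lie on chromosome 3 (GENCODE M21, GRCm38). Sprr1a spans 92483952 to 92485895 on the minus strand, with 2 exons and a longest transcript of 806 bases. Sprr2g spans 92373915 to 92375229 on the plus strand, 112 kb from Sprr1a, and is annotated as a polymorphic pseudogene in GENCODE and a transcribed pseudogene in RefSeq, so its RNA may not yield a protein. Lce1g spans 92750148 to 92752338 on the minus strand, 266 kb on the other side of Sprr1a. S100a7a spans 90654017 to 90658669 on the plus strand, 1832 kb away, among the S100 genes. Shared sequence limits how surely reads were assigned: 36.2% of the 31-base words of Lce1g occur in transcripts of other genes, mainly Lce1j, Lce1h and Lce1e, against 7.72% for S100a7a, 3.07% for Sprr2g and 0% for Sprr1a.

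The 250 bases before the RefSeq start of Sprr1a, of its family member Sprr2h, of Lce1g and of S100a7a are printed because in the levels below Sprr1a and Sprr2g lay wholly under vehicle with corticosterone on every day and Lce1g and S100a7a did not, and Sprr2h was among the genes nearest to Sprr2g. Sprr2h was also among the genes nearest to Lce1g, and its corticosterone and vehicle libraries overlapped at day 3. The printed windows are from RefSeq's table for GRCm38.p6. They are read 5′ to 3′ on the gene's strand, and capitals mark TGANTCA (the core bound by AP-1) and TGTTCT (part of the element bound by the glucocorticoid receptor), both searched on both strands, with no overlap in these windows.
Sprr1a (chr3:92485882-92486131, minus strand): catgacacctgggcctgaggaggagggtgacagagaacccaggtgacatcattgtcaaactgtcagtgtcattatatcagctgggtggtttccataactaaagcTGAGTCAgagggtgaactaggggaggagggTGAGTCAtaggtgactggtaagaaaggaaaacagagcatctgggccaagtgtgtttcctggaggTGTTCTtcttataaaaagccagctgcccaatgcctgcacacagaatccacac
Sprr2h (chr3:92385435-92385684, plus strand): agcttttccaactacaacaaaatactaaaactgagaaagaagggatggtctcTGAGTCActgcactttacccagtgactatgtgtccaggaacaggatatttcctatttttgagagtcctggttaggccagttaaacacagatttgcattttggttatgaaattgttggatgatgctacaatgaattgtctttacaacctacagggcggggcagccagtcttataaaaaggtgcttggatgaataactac
Lce1g (chr3:92752339-92752588, minus strand): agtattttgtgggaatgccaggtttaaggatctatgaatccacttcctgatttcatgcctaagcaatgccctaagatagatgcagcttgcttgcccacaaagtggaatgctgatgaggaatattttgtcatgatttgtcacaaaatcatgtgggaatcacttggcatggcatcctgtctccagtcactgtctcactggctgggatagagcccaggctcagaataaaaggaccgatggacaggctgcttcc
S100a7a (chr3:90654052-90654301, plus strand): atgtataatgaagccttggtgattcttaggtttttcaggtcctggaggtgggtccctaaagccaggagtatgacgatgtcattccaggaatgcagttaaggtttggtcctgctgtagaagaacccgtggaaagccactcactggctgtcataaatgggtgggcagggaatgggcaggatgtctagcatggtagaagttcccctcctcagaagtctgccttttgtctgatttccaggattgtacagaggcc
Of the 4 genes, 3 matched the table, and Sprr2g is named only. Sprr1a held TGANTCA at 146 and 116 bases before the start and TGTTCT at 52 bases before it. Sprr2h held 1 TGANTCA, at 198 bases. Of all 27025 promoters of the table, 6.87% held TGANTCA, 0.326% held it at least 2 times, and 16.2% held TGTTCT in a window of the same length. Among the 10074 promoters of measured genes, 4.31% held TGANTCA and 10.9% held TGTTCT. Among 5 other envelope genes searched, Lor held 1 TGANTCA at 48 bases, Sprr2h is the one printed, and Sprr2a1, Sprr2a2 and Tchh held neither motif. The S100a7a and Sprr2a2 windows lie inside these genes as GENCODE places them (starts 90654017 and 92215920). The bases before those GENCODE starts were not searched. A match in letters is a description of the window and shows no binding.

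Levels are log2 CPM (reads per gene relative to the whole library, normalized by the authors). The smallest value of the table, -4.15, is shared by all libraries, so differences that involve levels near it depend on the small count added before the logarithm. At day 0, per kb of longest transcript, Sprr1a stood at 10.41 and Sprr2g at 9.78 log2 CPM, against 3.64 for Lce1g and 3.05 for S100a7a. The first pair was thus among well expressed genes before treatment and the second pair was near 10 CPM (11.7 CPM for Lce1g and 10.7 CPM for S100a7a, not scaled by length).

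Markers were read alongside. Of 20 markers of epididymal and simple epithelium 11 were measured. They include the simple epithelial genes Krt8, Krt18, Krt19, Krt7, Cdh1, Epcam, Cldn1 and Cldn4, of which Krt18 was highest at day 0 (39.1 CPM). These named genes made up a minor part of the sum at day 0. The 11 summed to 360 to 410 CPM with corticosterone against 353 to 371 CPM with vehicle at day 3. At day 6 the sums were 427 to 465 against 351 to 372 CPM. At day 9 they were 384 to 408 against 315 to 349 CPM, with 331 to 341 CPM at day 0. Of these 11, 3 rose and 3 fell with corticosterone at day 3, 6 rose and 2 fell at day 6, and 7 rose and 1 fell at day 9. Krt18 and Cdh1 stood lower with corticosterone than with vehicle at day 6 (3.71 against 4.44 and 2.09 against 3.72 log2 CPM). Of all genes, 23.3% rose and 25.6% fell at day 3, 22.9 and 24.3% at day 6, and 14.1 and 14.4% at day 9. Of 10 keratinocyte markers Krt10 alone was measured, at 4.49 to 8.61 CPM, and the other markers were not analysed here. The 7 of 10 fibroblast-type markers measured summed to 3413 to 3632 CPM at day 0, and were lower with corticosterone than with vehicle at day 3 (918 to 1069 against 1308 to 1465 CPM) and day 6 (917 to 1078 against 1676 to 1921 CPM), with overlap at day 9 (1921 to 2187 against 2115 to 2797 CPM). Fn1 and Vim made up most of this sum, and members went both ways: 2 rose and 4 fell at day 3, 2 rose and 5 fell at day 6, and Dcn stood at 6.48 log2 CPM with corticosterone against 3.72 with vehicle at day 3. The 3 of 12 leukocyte markers measured summed to 34.6 to 49.2 against 68.6 to 74.4 CPM at day 3, 36.2 to 45.4 against 92.6 to 103.7 CPM at day 6 and 91.6 to 95.4 against 133.3 to 149.3 CPM at day 9, and to 34.3 to 35.9 CPM at day 0. All 3 fell at days 3 and 6, whereas at day 9 Cd68 alone fell and the median difference was 0.10. Mitochondrially encoded transcripts took 6.59 to 7.43% of CPM with corticosterone against 5.19 to 5.46% with vehicle at day 3, 8.16 to 9.15% against 5.40 to 5.81% at day 6 and 6.28 to 6.99% against 5.64 to 6.09% at day 9, with 3.22 to 3.35% at day 0. The 4 of 7 endothelial markers measured summed to 9.97 to 13.7 against 5.70 to 7.73 CPM at day 3, 8.60 to 16.4 against 6.72 to 8.25 CPM at day 6 and 5.74 to 6.70 against 9.68 to 14.01 CPM at day 9. On each day 1 of the 4 was called higher (Kdr, 3.05 log2 CPM with corticosterone against -2.49 with vehicle at day 6) and 1 lower (Flt1, 1.14 against 2.10 log2 CPM at day 6). The part of these values in the results below was not tested, and in bulk libraries fewer cells of a type and less RNA per cell cannot be told apart. Corticosterone day 3 replicate 4 stood apart from the other libraries of its group, by 0.52 log2 (root mean square) against 0.34 to 0.37 for the others.

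Sprr1a and Sprr2g were highest before treatment, stood far lower by day 3 of vehicle culture, and were higher again at each later vehicle sampling. Sprr1a had 9.90, 10.22, 10.19 and 10.08 log2 CPM in the 4 libraries of day 0. It had 6.04, 5.96, 5.80 and 6.11 in vehicle at day 3, 8.32, 8.35, 8.94 and 8.70 at day 6, and 9.88, 9.68, 9.88 and 9.41 at day 9. No 2 of these 4 groups overlapped, and day 9 vehicle stayed just under day 0. In mean CPM this is 5.76% of the day 0 level at day 3, 35.3% at day 6 and 77.0% at day 9.

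Sprr2g followed the same course at a lower level. It had 9.06, 9.25, 9.22 and 9.11 log2 CPM at day 0, then 5.26, 5.25, 5.08 and 5.23 in vehicle at day 3, 7.13, 7.14, 7.63 and 7.44 at day 6, and 8.53, 8.25, 8.50 and 8.37 at day 9. Its vehicle groups did not overlap either, and its mean CPM stood at 6.46, 28.6 and 59.7% of day 0 at days 3, 6 and 9. Among all 13128 differences between vehicle day 3 and day 0, counted from the lowest, Sprr1a (-4.12 ± 0.18, difference of log2 means ± SE, n = 4 per group) ranked 8 and Sprr2g (-3.95 ± 0.18) ranked 10. By day 9 these differences were -0.38 ± 0.18 for Sprr1a and -0.75 ± 0.18 for Sprr2g.

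Lce1g stood far below day 0 in every later group. It had 3.37, 3.44, 3.34 and 3.95 log2 CPM at day 0, against -1.94, -2.80, -3.42 and -4.15 in vehicle at day 3, -1.57, -2.20, -2.13 and -1.72 at day 6 and -0.97, -1.37, -1.29 and -0.83 at day 9. In 1 vehicle day 3 library it was thus at the lowest value of the table. Its difference from day 0 ranked 1 of 13128 from the lowest on all 3 vehicle days, at -6.60, -5.43 and -4.64 (SE 0.35). Size and rank rest on the small count added before the logarithm: with log2(CPM + 1) these differences were -3.46, -3.30 and -3.10, and with log2(CPM + 5) they were -1.69, -1.65 and -1.60, while Sprr1a at day 3 stood at -4.10 and -4.01. Its mean CPM at day 9 was 3.99% of that at day 0.

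S100a7a had a like course in vehicle. It had 3.49, 3.46, 3.25 and 3.44 log2 CPM at day 0, against -1.0, -1.39, -1.47 and -1.51 in vehicle at day 3, -0.72, -0.94, -0.43 and -1.14 at day 6 and -0.49, -0.38, -0.40 and -0.75 at day 9. The differences from day 0 were -4.75, -4.22 and -3.91 (SE 0.21), ranked 2, 4 and 5 from the lowest, and they too shrank, to -3.06, -2.88 and -2.77 with log2(CPM + 1) and to -1.53, -1.49 and -1.45 with log2(CPM + 5). Mean CPM was 3.74, 5.45 and 6.65% of day 0.

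In each vehicle day all 4 genes had every library under every day 0 library. Over all genes this held for 32.1% at day 3, 32.9% at day 6 and 33% at day 9 (all libraries above day 0: 34.6, 34 and 33.6%), and nothing is read from the count because the genes were chosen on these values. The table lists genes above 0 log2 CPM in at least 4 libraries, and Lce1g exceeded 0 only in the 4 day 0 libraries, so it could be listed only through its high level there. S100a7a exceeded 0 in the day 0 libraries, in 3 libraries of corticosterone day 6 and in 2 of corticosterone day 9. Sprr1a and Sprr2g exceeded 0 in all 28.

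**Figure D1:**
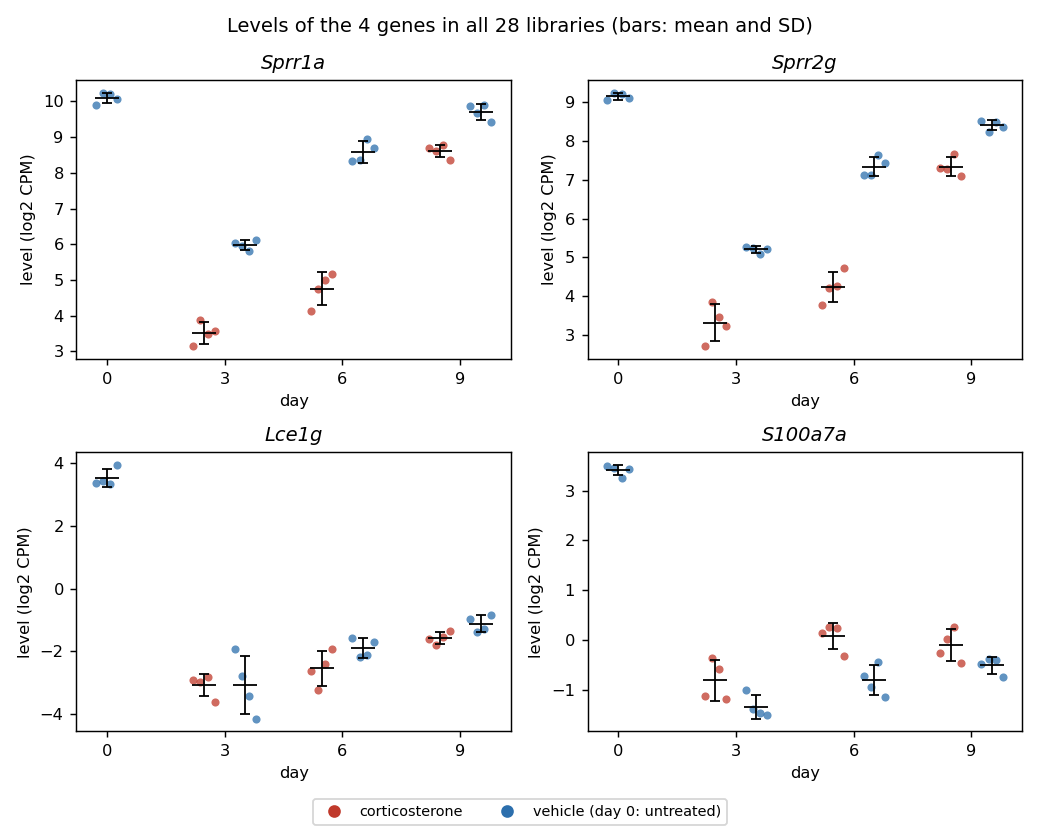
Level in log2 CPM (vertical axis) of each of the 4 genes by day (horizontal axis), with 1 point per library, corticosterone in red left of vehicle in blue, and black bars for the mean and SD of 4 libraries. Sprr1a with corticosterone at day 9 (8.61) stands beside vehicle at day 6 (8.58), while Lce1g and S100a7a stay far under day 0 in every later group.

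With corticosterone, Sprr1a and Sprr2g stood lower than in vehicle on all 3 days, most at day 6. Sprr1a had 3.14, 3.89, 3.48 and 3.57 log2 CPM with corticosterone at day 3, where vehicle averaged 5.98 ± 0.13 (SD). It had 4.73, 4.12, 5.01 and 5.16 with corticosterone at day 6 against a vehicle mean of 8.58 ± 0.30, and 8.71, 8.61, 8.77 and 8.36 at day 9 against 9.71 ± 0.22. Treated and vehicle libraries did not overlap on any day. The differences were -2.46, -3.82 and -1.10 (SE 0.18), or 5.49-fold, 14.1-fold and 2.14-fold lower.

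Sprr2g had 2.71, 3.86, 3.47 and 3.23 log2 CPM with corticosterone at day 3 against a vehicle mean of 5.21 ± 0.08. It had 4.20, 3.77, 4.25 and 4.72 at day 6 against 7.34 ± 0.24, and 7.31, 7.28, 7.68 and 7.11 at day 9 against 8.41 ± 0.13. These groups did not overlap either. The differences were -1.89, -3.10 and -1.07 (SE 0.18), or 3.71-fold, 8.58-fold and 2.10-fold lower.

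For this pair, treated libraries of day 9 stood beside vehicle libraries of day 6. Corticosterone day 9 overlapped vehicle day 6 for both Sprr1a (8.61 ± 0.18 against 8.58 ± 0.30) and Sprr2g (7.34 ± 0.24 against 7.34 ± 0.24), whereas both were apart from vehicle day 9. Corticosterone day 6 was below vehicle day 3 for both genes (4.76 ± 0.46 against 5.98 ± 0.13 for Sprr1a, 4.24 ± 0.39 against 5.21 ± 0.08 for Sprr2g). Between days 6 and 9 the means of treated libraries differed by 3.86 for Sprr1a and 3.11 for Sprr2g on the log2 scale, higher at day 9, and between days 3 and 6 by 1.23 and 0.92, higher at day 6.

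Ordered from the highest mean, Sprr1a ran vehicle day 0, vehicle day 9, corticosterone day 9, vehicle day 6, vehicle day 3, corticosterone day 6 and corticosterone day 3, and all neighbours were apart except corticosterone day 9 and vehicle day 6. Sprr2g had the same order, and corticosterone days 6 and 3 also overlapped. The gap between the pair was narrowest where both were lowest: Sprr1a exceeded Sprr2g by 0.21 ± 0.21 log2 with corticosterone at day 3 against 0.77 ± 0.08 with vehicle, by 0.52 ± 0.17 against 1.24 ± 0.05 at day 6, and by 1.27 ± 0.13 against 1.30 ± 0.18 at day 9 (SD, n = 4), with 0.94 ± 0.06 at day 0.

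Lce1g, already near the lowest values, overlapped vehicle on every day. It had -2.91, -2.97, -2.83 and -3.62 log2 CPM with corticosterone at day 3 against a vehicle mean of -3.08 ± 0.94, -3.25, -2.62, -2.40 and -1.92 at day 6 against -1.90 ± 0.31, and -1.60, -1.80, -1.53 and -1.35 at day 9 against -1.12 ± 0.26. The differences were -0.00, -0.65 and -0.45 (SE 0.35). Only day 0 stood apart in its order of groups.

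S100a7a was the one of the 4 with a higher mean in corticosterone on every day. It had -1.12, -0.36, -0.59 and -1.19 log2 CPM at day 3 against a vehicle mean of -1.34 ± 0.24, 0.26, 0.15, 0.24 and -0.31 at day 6 against -0.81 ± 0.30, and -0.27, 0.02, 0.27 and -0.46 at day 9 against -0.50 ± 0.17. At day 6 every treated library was above every vehicle library, and the groups overlapped at days 3 and 9. The differences were 0.53, 0.89 and 0.39 (SE 0.21), at levels near 1 CPM (1.07 with corticosterone against 0.581 with vehicle at day 6). Corticosterone day 6 was still at 10.1% of the day 0 mean.

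Set against the table, 2 of the 4 genes had all treated libraries below vehicle at day 3, where 19.7% of all genes did, and none was wholly above, as 18.8% of all genes were. At day 6 it was 2 of 4 below and 1 of 4 above, with 24.5% and 23.8% of all genes, and at day 9 it was 2 of 4 below, with 16.3% of all genes, and none above, with 16.6%. By size, Sprr1a ranked 29, 12 and 157 from the lowest of the 13128 corticosterone differences at days 3, 6 and 9, and Sprr2g ranked 85, 25 and 171. S100a7a ranked 561 from the highest at day 6.

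**Figure D2:**
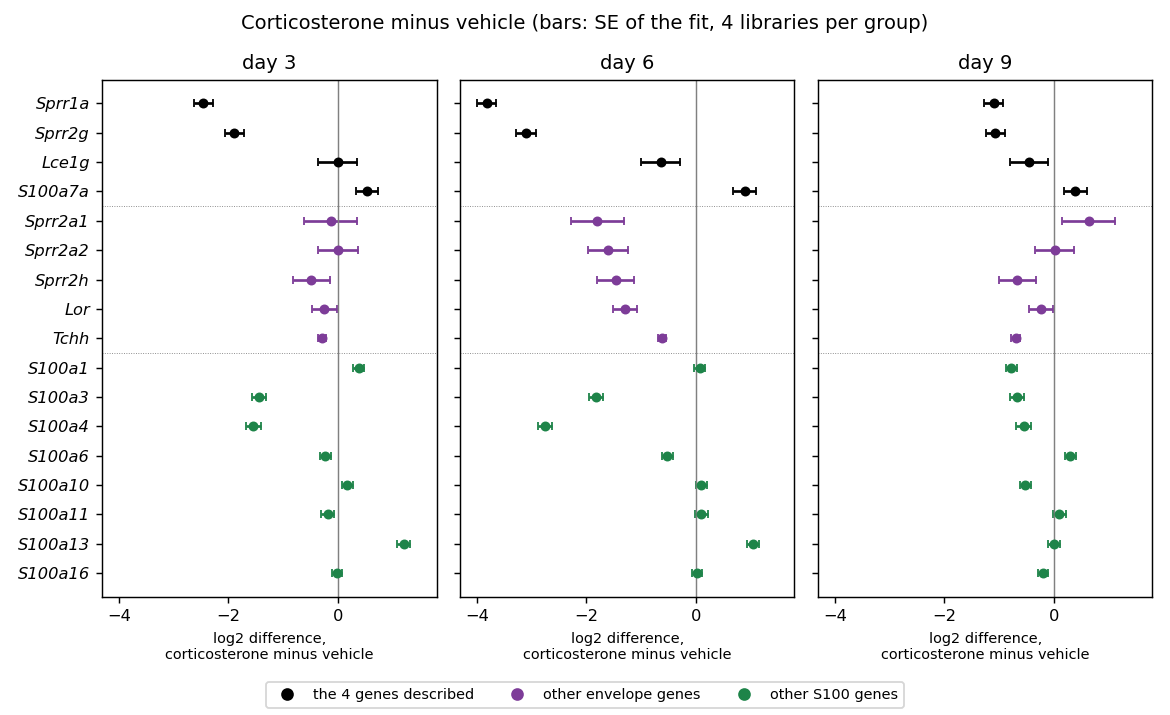
Difference in log2 level, corticosterone minus vehicle (horizontal axes), at days 3, 6 and 9 for the 4 genes (black), the 5 other measured envelope genes (purple) and the 8 other measured S100 genes (green), with bars for the SE of the fit. Sprr1a (-3.82) and Sprr2g (-3.10) lie farthest to the left at day 6, and S100a7a (0.89) lies right of 0.

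The other genes of the complex were tested with limma, with Benjamini-Hochberg adjustment over all 13128 genes and a call at adjusted p under 0.05. Of 51 other envelope genes listed, 5 were measured. With corticosterone at day 6 all 5 of these fell, at day 3 Tchh alone did, and at day 9 Tchh alone did. Of all genes, 24.3% fell at day 6, 25.6% at day 3 and 14.4% at day 9. The median of the 5 was -0.25, -1.46 and -0.23 at days 3, 6 and 9, against -0.01, -0.00 and 0.00 over all genes.

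Lor, which encodes loricrin, the main protein of the epidermal envelope, had -0.50 ± 0.21 log2 CPM with corticosterone and 0.79 ± 0.62 with vehicle at day 6 (SD, n = 4), a fall of 1.29 ± 0.22 (SE; limma adjusted p = 2.82e-05). At days 3 and 9 its differences were -0.25 and -0.23 (adjusted p = 0.376 and 0.478 in limma). Tchh, for trichohyalin of the hair follicle's inner root sheath, fell on all 3 days, to 4.71 with corticosterone against 5.00 with vehicle at day 3, 4.81 against 5.42 at day 6 and 5.02 against 5.72 at day 9 (limma adjusted p = 0.0023, 1.41e-07 and 7.81e-08). Tchh was the one envelope gene of the 5 that was higher in vehicle at day 9 than at day 0, by 0.66 ± 0.08.

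The Sprr2 relatives were near the lowest values, so their sizes are uncertain. Sprr2a1 stood at -2.70 with corticosterone against -0.91 with vehicle at day 6 (-1.80 ± 0.49, limma adjusted p = 0.00344). Sprr2a2 stood at -2.29 against -0.68 (-1.61 ± 0.36, limma adjusted p = 0.000579). They share 96.9% and 97.8% of their 31-base words with other genes, mainly with each other and Sprr2a3, so reads may be split between them. Sprr2h, 100.2 kb from Sprr1a, stood at -3.62 against -2.16 (-1.46 ± 0.34, limma adjusted p = 0.00081). Adding 1 or 5 CPM before the logarithm ended this call, at -0.19 and -0.04. None of the 3 was called at day 3 or 9, although Sprr2a1 at day 9 was called higher with log2(CPM + 1) (0.29) and log2(CPM + 5) (0.09), and Sprr2h was called lower there after quantile normalization (-1.2).

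In vehicle against day 0, 4 of the 5 were lower on each day and Tchh was uncalled at day 3 and higher at days 6 and 9. Of all genes 32.7, 33.7 and 34.6% were lower on these days. Sprr2h differed by -4.47, -3.11 and -1.68, Lor by -2.01, -1.22 and -0.75, Sprr2a1 by -3.53, -1.77 and -1.38 and Sprr2a2 by -4.25, -1.52 and -0.90. The distance to day 0 was thus smaller at each later sampling, as for Sprr1a. Sprr2h is listed only through day 0, and Sprr2a1 and Sprr2a2 mainly so. Without day 0 none of them would be listed, so the minimum level favoured a lower level later. The day 9 call of Sprr2a2 ended without any 1 of day 0 replicates 3, 4 and 6 or vehicle day 9 replicate 4 (-0.89 to -0.83).

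**Figure D3:**
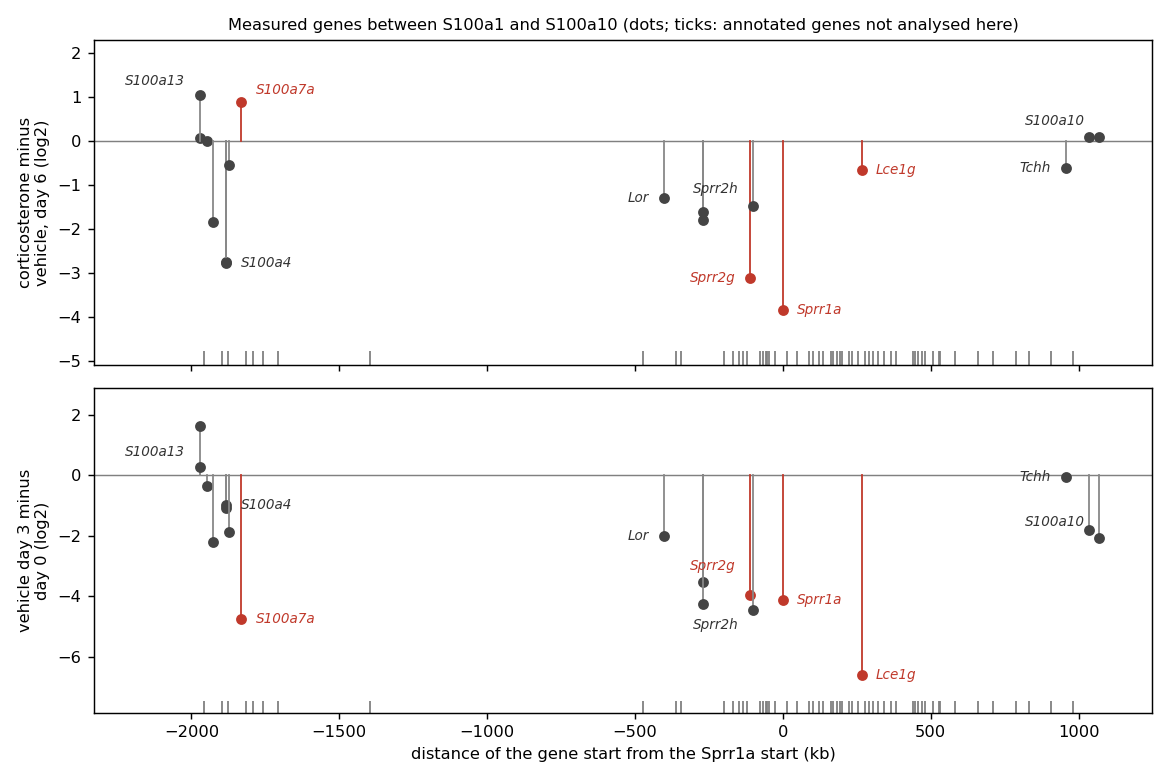
Distance of each gene's start from the Sprr1a start in kb (horizontal axis) against the log2 difference (vertical axes) for corticosterone minus vehicle at day 6 (top) and vehicle day 3 minus day 0 (bottom), with the 4 genes in red, other measured genes in grey and ticks for annotated genes not analysed here. In the top panel S100a7a (0.89) lies above 0 among S100 genes on both sides of 0, and in the bottom panel Lce1g (-6.60) lies lowest.

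Between S100a1 and S100a10 the annotation lists 76 genes on 3.054 Mb, of which 18 were measured. Of the 14 besides the 4, 9 fell and 1 rose with corticosterone at day 6. At day 3 it was 4 and 2, and at day 9 it was 6 and 1. In vehicle at day 3 against day 0, 11 fell and 2 rose. The 11 include Sprr2h, listed only through day 0, and Sprr2a1 and Sprr2a2, listed mainly so. Without day 0 none of these genes would be listed, so the minimum level favoured a fall at day 3 and nothing is read from theirs. Of all genes 24.3% fell and 22.9% rose with corticosterone at day 6, 25.6 and 23.3% at day 3, 14.4 and 14.1% at day 9, and 32.7 and 36.5% in vehicle at day 3. The 14 are not independent, since they hold Sprr2a1 with Sprr2a2 and a predicted gene that overlaps S100a4.

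The S100 genes, whose products bind calcium, moved in both directions. Of 17 others listed, 8 were measured, and with corticosterone 2 rose and 2 fell at day 3, 1 rose and 3 fell at day 6, and 1 rose and 4 fell at day 9. Of all genes 23.3% rose and 25.6% fell at day 3, 22.9 and 24.3% at day 6, and 14.1 and 14.4% at day 9. Their median was -0.10, 0.04 and -0.35, against -0.01, -0.00 and 0.00 over all genes.

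S100a4, the metastasis-associated member, had 4.14, 4.92, 3.99 and 3.99 log2 CPM with corticosterone at day 3, where vehicle had 5.85, 5.87, 5.76 and 5.75, and it fell by 1.55 ± 0.13, by 2.76 ± 0.13 at day 6 and by 0.55 ± 0.13 at day 9 (limma adjusted p = 3.27e-10, 4.64e-15 and 0.00253). Like Sprr1a it was lowest relative to vehicle at day 6, though 49.2% of its 31-base words occur in an overlapping predicted gene. S100a3 fell by 1.44, 1.83 and 0.68 (SE 0.13) on the same days. S100a13, involved in the release of proteins without a signal peptide, was the one of the 8 that rose at day 6, with 1.2 ± 0.11, 1.05 ± 0.11 and 0.01 ± 0.11 at days 3, 6 and 9 (limma adjusted p = 2.12e-09, 2.33e-08 and 0.98).

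S100a6, the most abundant of them per kb at day 0 (11.68 log2 CPM per kb), fell by 0.53 ± 0.10 at day 6 and was higher at day 9, by 0.30 ± 0.10 (limma adjusted p = 0.0253). The day 9 call ended without any 1 of vehicle replicates 5 and 6 and corticosterone replicates 4 and 6 (0.26 to 0.29), and at day 3 (-0.23) S100a6 was called lower with quantile normalization (-0.38) and without corticosterone replicate 4 (-0.39) or vehicle replicate 6 (-0.27). S100a1 rose by 0.38 ± 0.10 at day 3, was at 0.07 ± 0.10 at day 6 (limma adjusted p = 0.619) and fell by 0.77 ± 0.10 at day 9. S100a10, the partner of annexin A2, was at 0.17 and 0.10 (limma adjusted p = 0.172 and 0.451) and fell by 0.52 ± 0.10 at day 9. S100a11, a substrate of transglutaminases in human keratinocytes, stood at -0.18, 0.10 and 0.10 and S100a16 at -0.02, 0.02 and -0.19 with no call (limma adjusted p from 0.128 to 0.892), except that S100a11 was called lower at day 3 without corticosterone replicate 4 (-0.37). Of the 31-base words of S100a11, 48.9% occur in transcripts of other genes, mainly Gm12854, Gm7665 and Gm29240.

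Against day 0, vehicle at day 3 was lower for 6 of the 8 S100 genes and higher for S100a1 (1.62 ± 0.10) and S100a13 (0.28 ± 0.11, limma adjusted p = 0.032). The S100a13 call ended with quantile normalization (0.22), with log2(CPM + 5) (0.23) and without any 1 of 5 libraries (0.23 to 0.28). At days 6 and 9, 6 and 4 were lower and S100a1 alone was higher. Of all genes 32.7, 33.7 and 34.6% were lower and 36.5, 36.4 and 35.9% higher at days 3, 6 and 9. S100a10, S100a6 and S100a11 were lower by 2.09, 1.89 and 1.81 at day 3, and S100a6 and S100a11 were still lower by 1.53 and 1.74 at day 9. S100a4 at day 9 had 7.0 log2 CPM in vehicle against 6.79 at day 0 and was not called (limma adjusted p = 0.161).

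The enzyme that joins envelope proteins was measured only as Tgm2, the tissue transglutaminase, among the transglutaminases listed. Tgm2 had 6.49 log2 CPM with corticosterone and 7.25 with vehicle at day 3 (-0.77 ± 0.14, limma adjusted p = 7.8e-05), 6.88 against 7.33 at day 6 (-0.46 ± 0.14, limma adjusted p = 0.0103) and 7.15 against 7.17 at day 9 (-0.02 ± 0.14, limma adjusted p = 0.94). Against day 0 it ran the other way from Sprr1a, higher in vehicle by 0.60, 0.69 and 0.53 at days 3, 6 and 9 (SE 0.14). Of the 11 measured scaffold and junction genes, Tgm2 included, 4 rose and 5 fell with corticosterone at days 3 and 6, and 2 rose and 2 fell at day 9, with medians of 0.05, -0.28 and -0.02. Of all genes 23.3, 22.9 and 14.1% rose and 25.6, 24.3 and 14.4% fell on these days. Pkp1, a desmosomal plakophilin, fell by 1.43, 2.15 and 1.6 (SE 0.26), and Cdsn, the desmosomal adhesion protein corneodesmosin, fell by 1.67 and 0.95 (SE 0.09) and was at 0.02 at day 9 (limma adjusted p = 0.88).

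Of 14 measured enzymes and inhibitors of cornification, 2 rose and 5 fell at day 3, 4 rose and 3 fell at day 6, and 7 rose and 2 fell at day 9, with medians of -0.09, 0.09 and 0.13, beside 23.3, 22.9 and 14.1% of all genes that rose and 25.6, 24.3 and 14.4% that fell. Casp14, a caspase of late keratinocyte differentiation, fell by 2.32 ± 0.31 at day 3 and by 0.97 ± 0.31 at day 6 and was higher by 1.12 ± 0.31 at day 9 (limma adjusted p = 5.36e-07, 0.0102 and 0.00678). The day 6 call ended with log2(CPM + 1) (-0.18) and log2(CPM + 5) (-0.04), and the day 9 call with quantile normalization (0.80) and log2(CPM + 5) (0.07). Casp14 exceeded 0 log2 CPM only at day 0 (1.07 to 1.48), so it could be listed only through that group. Ctsl, the protease cathepsin L, was higher by 0.69 and 0.72 at days 3 and 6 and lower by 0.18 at day 9 (SE 0.05).

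Of 21 squamous keratins only Krt80 and Krt10 were measured. Krt80 fell by 1.03 ± 0.16 at day 3 and by 0.55 ± 0.16 at day 6, and was at -0.33 ± 0.16 at day 9 (limma adjusted p = 6.4e-06, 0.00544 and 0.124). Krt10 was called on none of these days. With 1 of 2 falling at days 3 and 6 and 0 of 2 at day 9, the group had medians of -0.51, -0.17 and -0.07. Of all genes 25.6, 24.3 and 14.4% fell on these days.

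Among 15 measured transcription factors of squamous differentiation, 6 rose and 6 fell at day 3, 6 rose and 4 fell at day 6, and 2 rose and 2 fell at day 9, with medians of 0.09, 0.20 and 0.01, where 23.3, 22.9 and 14.1% of all genes rose and 25.6, 24.3 and 14.4% fell. Elf3, an epithelial ETS factor, rose by 0.92 and 1.08 (SE 0.11) and stood at 0.28 at day 9 (limma adjusted p = 0.0666), where quantile normalization gave a call (0.30).

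Of 16 measured AP-1 and ETS genes, 2 rose and 9 fell at day 3, 3 rose and 6 fell at day 6 and 0 rose and 6 fell at day 9, with medians of -0.47, -0.04 and -0.13. The shares of all genes were 23.3, 22.9 and 14.1% higher and 25.6, 24.3 and 14.4% lower. Etv4, an ETS factor, fell by 2.23, 3.65 and 1.69 (SE 0.22). Fosl1, which encodes the AP-1 subunit Fra-1, had 2.02 log2 CPM with corticosterone against 3.63 with vehicle at day 3, 2.89 against 5.04 at day 6 and 4.89 against 5.77 at day 9, and fell by 1.61, 2.15 and 0.89 (SE 0.12; limma adjusted p = 1.11e-11, 3.2e-14 and 1.87e-06).

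Of 12 measured antimicrobial and alarm genes, the group to which psoriasin belongs by function, 4 rose and 5 fell at day 3, 2 rose and 6 fell at day 6 and 1 rose and 6 fell at day 9, with medians of -0.13, -0.18 and -0.12, against 23.3, 22.9 and 14.1% of all genes higher and 25.6, 24.3 and 14.4% lower. Defb1, a beta defensin counted among those that rose, exceeded 0 log2 CPM only in corticosterone libraries of days 3 and 6, so it could be listed only through them and its differences there (4.61 and 4.17) are given as a description. Its vehicle libraries were at or next to the lowest value of the table. Lcn2, whose product binds bacterial iron carriers, was higher by 4.39 and 2.73 (SE 0.23) and lower by 0.66 at day 9 (limma adjusted p = 0.0356), which was no longer called under the replicate block or when any 1 of the 8 libraries was omitted (-0.70 to -0.63).

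Over the 55 measured genes of the envelope, S100, scaffold, enzyme, keratin and squamous factor lists, without the 4 and without the AP-1 and ETS and the antimicrobial lists, 14 rose and 20 fell at day 3, 15 rose and 21 fell at day 6 and 12 rose and 11 fell at day 9, with medians of -0.09, -0.02 and 0.01. These counts are set beside 23.3 and 25.6%, 22.9 and 24.3%, and 14.1 and 14.4% of all genes that rose and fell. In vehicle against day 0, 23 rose and 20 fell at day 3. At day 6, 24 rose and 22 fell, and at day 9, 25 rose and 20 fell. Of all genes 36.5, 36.4 and 35.9% rose and 32.7, 33.7 and 34.6% fell on these days. Among the falls are Sprr2h and Casp14, listed only through day 0, and Sprr2a1 and Sprr2a2, listed mainly so. Hypoxia-inducible genes were also listed: of 20 measured, 10 rose and 6 fell with corticosterone at day 3, 2 rose and 15 fell at day 6 and 0 rose and 18 fell at day 9, and in vehicle at day 9 against day 0, 18 rose and 0 fell.

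The effect of corticosterone on the 5 envelope genes was also compared between days. Lor and Sprr2a2 were lower relative to vehicle at day 6 than at day 3 (-1.04 ± 0.32 and -1.61 ± 0.51, limma adjusted p = 0.0375 and 0.0464), and these calls ended in 10 and 12 of the 16 single-library omissions, with quantile normalization, with log2(CPM + 1), with log2(CPM + 5) and with the replicate block. Of all genes 4.21% had a higher and 4.9% a lower effect at day 6 than at day 3. From day 6 to day 9 the effect on Sprr2a1, Sprr2a2 and Lor moved up by 2.43 ± 0.69, 1.62 ± 0.51 and 1.06 ± 0.32 (limma adjusted p = 0.00811, 0.0165 and 0.0121), the last not called with log2(CPM + 5), where 16% of all genes moved up and 14.9% down. The same differences, given without a test, were 2.72 ± 0.25 for Sprr1a and 2.03 ± 0.25 for Sprr2g. For Lce1g the corticosterone difference was -0.65 at day 6 and -0.45 at day 9 (SE 0.35). S100a7a moved down instead, from 0.89 at day 6 to 0.39 at day 9 (SE 0.21).

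The genes with the most similar pattern were found by centring each gene's log2 CPM on its mean over the 28 libraries and taking the root mean square difference, where a smaller value is nearer. Sprr2g was nearest to Sprr1a of all genes, and Sprr1a to Sprr2g, at 0.41. Fosl1 came next for both, at 0.98 from Sprr1a and 0.65 from Sprr2g. Itgb6 (the integrin beta 6 subunit of epithelia), Tnnt2 (cardiac troponin T) and Ndst3 (a heparan sulfate sulfotransferase) followed for Sprr1a at 1.04, 1.05 and 1.06, and Ndst3, Itgb6 and Sprr2h for Sprr2g at 0.76, 0.79 and 0.81.

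The nearest genes did not match the pair in every group. Itgb6 had 0.65, 0.99 and 3.69 log2 CPM with corticosterone at days 3, 6 and 9 against 3.34, 4.01 and 4.38 with vehicle, and 4.89 at day 0, so its vehicle mean at day 3 was nearer to day 0 than that of Sprr1a. Ndst3 had -1.16, -0.94 and 1.82 with corticosterone against -0.27, 1.29 and 2.19 with vehicle, and 2.29 at day 0.

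Lce1g was nearest to S100a7a (0.99), then to Gtsf1 (a small RNA pathway gene of germ cells, 1.04), Sprr2h (1.05), Ppbp (a platelet chemokine, 1.06) and Fam71f1 (1.15). S100a7a had nearer genes of its own, Inhba (the activin A subunit, 0.52), Klra4 (a lectin-like receptor of natural killer cells, 0.60), Gtsf1 (0.64), C3ar1 (the receptor of complement fragment C3a, 0.65) and Fabp5 (the epidermal fatty acid binding protein, 0.67), and Lce1g ranked 88 for it. The 2 pairs were far from each other: for S100a7a, Sprr2g ranked 10867 and Sprr1a 12493 of all genes. Fabp5 had 5.13, 5.76 and 5.43 log2 CPM with corticosterone at days 3, 6 and 9 against 4.13, 4.56 and 4.86 with vehicle. It had 7.25 at day 0. Like S100a7a, Fabp5 and Gtsf1 had a higher mean in treated libraries on every day. Inhba (1.55 against 1.83), Klra4 (-2.14 against -1.87) and C3ar1 (-1.35 against -1.06) had a lower mean with corticosterone at day 3. At days 6 and 9 the means of Inhba, Klra4 and C3ar1 were higher with corticosterone. Likeness is a description over 28 libraries that share 7 group means. Lce1g and Sprr2h are listed only through day 0, so the minimum level fixed part of the pattern they share. Gtsf1, Klra4 and C3ar1 had means above 0 log2 CPM only at day 0 (1.81, 2.25 and 1.84), so the same limit touches them.

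**Figure D4:**
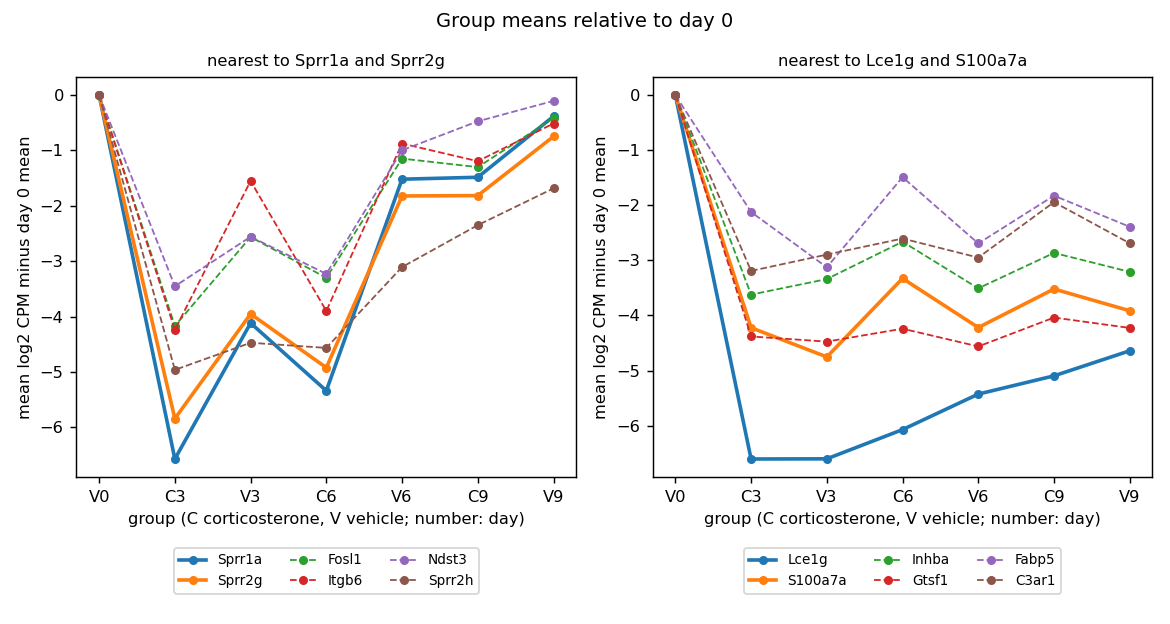
Mean log2 CPM of each group minus the day 0 mean (vertical axes) over the 7 groups (horizontal axes, C for corticosterone, V for vehicle, number for day), for Sprr1a and Sprr2g with 4 of their nearest genes (left) and Lce1g and S100a7a with 4 of theirs (right). Solid lines are the 4 genes and dashed lines the neighbours, and the left lines come back towards 0 by vehicle day 9 while the right lines stay below it.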

How the data were processed

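Stranded mRNA libraries of DC2 cells were compared in 7 groups of 4, taken from the labels. The authors deposited normalized log2 CPM values. The submitters' processing notes name the build mm10 and the tools kallisto, edgeR 3.40.1 and limma 3.54.0, and settings are not given in the sources used here. Libraries sum to 949631 to 1059931 CPM. Read depth is unknown: at most 20.6% of low values in a library fell on whole-read steps (tolerance 0.02), so no count model was fitted. An entry without a symbol (0.0267 to 0.0698% of CPM) was left out. No library copied another (smallest root mean square difference 0.2824).

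A mean per group was fitted with limma 3.58.1 in R 4.3.3 to all 28 libraries (21 residual degrees of freedom, intensity trend), after requiring over 0 log2 CPM in 4 or more libraries, which removed 0 genes. The fit was tested on simulated data. Benjamini-Hochberg adjusted p under 0.05 over 13128 genes made a call. The 4 genes and all lists were chosen with earlier results of these data known. By rule, every measured envelope and S100 gene and transglutaminase was named, and up to 4 called genes with the largest day 6 difference from each other list; 2 were taken, a number set after values were seen, and 1 of these genes is not reported here.

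Same-numbered corticosterone and vehicle libraries deviated weakly together at day 6 (correlations 0.156, 0.126 and 0.11 for replicates 3, 5 and 6). The values were 0.071, -0.031 and 0.059 at day 3 and 0.032, 0.167, 0.089 and 0.054 at day 9. Day 6 alone was counted as paired, although the highest single value was at day 9. Differently numbered libraries were not compared, so these values do not show a pairing. The alternatives were median centring, quantile normalization, log2(CPM + 1), log2(CPM + 5), no filter, a minimum of 2 log2 CPM in 4 libraries, no trend, a replicate block, only the groups compared, and leaving out each library. Omitting corticosterone day 3 replicate 4 was also listed after seeing the data.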

Additional observations from a re-analysis of the deposited data

Results flagged for a closer look

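In groups of 4, the highest or lowest library was set apart from the others by more than Dixon's critical ratio in 16 of 194 groups over 28 genes. Chance gives about 1 in 20 for independent, normally spread values without ties. These groups do not meet that: several flags share 1 library, and those of Defb1 and Sprr2h rest on ties at the lowest value. Of the 4 genes, Lce1g at day 0 had replicate 6 at 3.95 log2 CPM, above the others at 3.34 to 3.44, and Sprr2g in vehicle at day 3 had replicate 5 at 5.08, below the others at 5.23 to 5.26. Corticosterone day 3 replicate 4 was high for S100a1 (5.67 log2 CPM), S100a10 (6.12), S100a4 (4.92) and Elf3 (3.96). Corticosterone day 6 replicate 6 was low for Ctsl (9.08) and Lcn2 (4.48). Vehicle day 9 replicate 3 was low for Ctsl (8.73). At day 0, Elf3 was high in replicate 4 (2.13) and Lcn2 in replicate 6 (-2.07). In vehicle at day 3, Pkp1 was high in replicate 5 (-0.019) and S100a6 low in replicate 6 (9.32). Sprr2a1 was low in corticosterone day 9 replicate 4 (-0.24). Defb1 in vehicle day 6 replicate 6 (-3.58) and Sprr2h in corticosterone day 3 replicate 6 (-3.62) were the 1 library of their group above the lowest value of the table.

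The corticosterone effect differed between day 6 and day 3 by an interaction term in limma (log2, day 6 effect minus day 3 effect, adjusted p under 0.05) for Cdsn (0.72), Etv4 (-1.42), Fosl1 (-0.55), Lcn2 (-1.66), Lor (-1.04), S100a4 (-1.21) and Sprr2a2 (-1.61). The Fosl1 call ended without any 1 of 8 libraries (-0.56 to -0.45), and the Lcn2 call with log2(CPM + 5) (-0.51). Between day 9 and day 6 the effect was more positive for Casp14 (2.10), Cdsn (0.97), Etv4 (1.96), Fosl1 (1.27), Lor (1.06), S100a3 (1.15), S100a4 (2.20), S100a6 (0.82), Sprr2a1 (2.43) and Sprr2a2 (1.62), and more negative for Ctsl (-0.90), Defb1 (-3.46), Elf3 (-0.81), Lcn2 (-3.39), S100a1 (-0.84), S100a10 (-0.62) and S100a13 (-1.04). Defb1 could be listed only through corticosterone libraries of days 3 and 6, so the direction of its value was fixed by the minimum level.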

How the results depend on the processing

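The differences of the 4 genes kept their sign under every alternative run, except Lce1g with corticosterone at day 3 (-0.00), which was positive with median centring, quantile normalization, the replicate block and 3 of the single-library omissions. With log2(CPM + 5) the corticosterone differences shrank: Sprr1a to -2.04 and Sprr2g to -1.47 at day 3, Sprr2g to -2.80 and Lce1g to -0.025 at day 6, and S100a7a to 0.049, 0.12 and 0.058 at days 3, 6 and 9. With log2(CPM + 1) S100a7a stood at 0.18 at day 3 and 0.39 at day 6, and Lce1g at -0.11 at day 6. With quantile normalization Lce1g at day 9 stood at -1.01. A larger added count shrinks differences of low genes by its construction, and did so for Lce1g and S100a7a in vehicle against day 0 (to -1.69 and -1.53 at day 3 with log2(CPM + 5)). Leaving out each library, Lce1g at day 3 ranged from -0.36 to 0.38, Sprr1a from -2.58 to -2.33 at day 3, -3.96 to -3.61 at day 6 and -1.20 to -1.02 at day 9, and Sprr2g at day 6 from -3.26 to -2.95.

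Of the 55 other genes, those whose corticosterone effect was lower at day 6 than at day 3 numbered 3, and 6 with log2(CPM + 5) and 1 with only the groups compared, and 1 to 4 leaving out each library (1 without vehicle day 3 replicate 3 or vehicle day 6 replicate 5 or 6). Those with a higher effect numbered 3, and 3 to 8 leaving out each library (8 without corticosterone day 3 replicate 4, 5 without corticosterone day 3 replicate 6 or day 6 replicate 6). The cause was not tested. All other counts of calls stayed within 1.5 times.

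With the replicate block, Sprr1a stood at -3.65, Sprr2g at -2.92, Lce1g at -0.68 and S100a7a at 0.96 at day 6, and 14 of the 55 rose and 22 fell there. The block changed no day 6 call of a named gene. Read depth, unknown here, limits values near the lowest of the table, such as those of Lce1g.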
